A study of Mus musculus with 24 samples.

Results

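Heme is made and broken down by a short series of enzymes, and 9 of their genes were followed here in cultured mouse granulosa cells. The 9 genes were chosen by name, as entries of the count table with the symbols Alas1, Alad, Uros, Urod, Cpox, Ppox, Fech, Hmox1 and Hmox2. They are 9 of 39253 genes listed, and 9 of 9 had enough counts to enter the tests, which covered 15405 genes. The cells were primary granulosa cells, which line the ovarian follicle around the egg and produce its steroid hormones, from C57BL/6 mice aged 23 days and primed for 48 h with PMSG, a gonadotropin that drives follicle growth. Each culture pooled cells of 2 mice, was transfected for 3 h either with siNC, a negative control siRNA, or with siNTS, which targets Nts, and then received plain medium or hCG for 4 h or 12 h. hCG acts on the luteinizing hormone receptor and stands in for the hormone surge that starts ovulation. Nts encodes neurotensin, a secreted peptide. The 24 mRNA libraries fall into 6 groups of 4, made of 3 treatments at 4 h and 12 h: siNC in plain medium, siNC with hCG, and siNTS with hCG. In all 6 groups the cells carried an siRNA, and the siRNA against Nts was combined only with hCG.

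Each group holds 1 library for each of 4 replicate labels, A_1, A_2, B_2 and B_3, and values per library are given in that order. The labels stand for 3 culture dates, since A_2 and B_2 share one. Library totals ran from 26.2 M to 45.4 M estimated counts, with a median of 39.2 M. Levels are in CPM, counts relative to a library size scaled by the TMM method, given per library or as mean ± SD (n = 4). Effects are log2 fold changes ± standard error from edgeR's quasi-likelihood test, with p-values adjusted by Benjamini-Hochberg over all genes tested and a threshold of 0.05. Granulosa markers were present in every library, with Inha between 688 and 2975 CPM and Foxl2 between 64.9 and 234 CPM, while the estrogen-synthesis gene Cyp19a1 stood at only 1.32 to 16.9 CPM. Nts itself was lower with siNTS under each of the 4 labels at both times. After 4 h of hCG it measured 16.1, 28.7, 22.9 and 180 CPM with siNC against 1.99, 4.39, 4.16 and 42.9 CPM with siNTS. After 12 h of hCG Nts was already low with siNC, at 2.69, 1.56, 1.49 and 9.67 CPM. With siNTS it was then at 0.154, 0.121, 0.0764 and 2.73 CPM. Its spread between labels was wide, and the log2 fold changes of −2.22 ± 1.02 at 4 h and −2.34 ± 1.16 at 12 h did not pass (adjusted p = 1 for both). Blocking by label gave −2.46 at 4 h (adjusted p = 0.053) and −2.76 at 12 h, which passed (adjusted p = 0.022), blocking by culture date passed at both times (adjusted p = 0.043 and 0.017), and in the authors' deposited tables Nts was lower at both (−2.55, adjusted p = 0.00034; −3.10, adjusted p = 4.0e-05).

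Heme is an iron-bearing ring that sits in hemoglobin, in the cytochromes of the respiratory chain and in cytochrome P450 enzymes, including those that make steroid hormones. Its synthesis begins in mitochondria, where ALAS1 joins glycine to succinyl-CoA in the step that sets the rate in cells other than red blood cell precursors. ALAD, UROS and UROD act in the cytosol, where the ring is assembled and trimmed, and CPOX, PPOX and FECH finish it in mitochondria, with FECH inserting the iron. HMOX1 and HMOX2 break heme down to biliverdin, carbon monoxide and iron. HMOX1 is the form induced by stress and by heme itself, and HMOX2 is the form present constantly in most tissues.

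Cells of other types bear on these genes, because red blood cell precursors make heme in bulk and macrophages express Hmox1 strongly. All 10 erythroid markers were in the table, and their summed level was 336 to 4284 CPM in siNC cells without hCG at 4 h and 113 to 1496 CPM at 12 h. With hCG the sum was 303 to 3051 CPM at 4 h and 101 to 907 CPM at 12 h, and with hCG and siNTS it was 328 to 2809 CPM and 175 to 857 CPM. Globin transcripts made up most of it, and Hbb-bs, a beta-globin gene, ranged from 47.5 to 2005 CPM. The labels A_1 and B_2 held the highest sums in 5 of the 6 groups, and the sum was lowest under B_3 in all 6. In siNC cells without hCG at 12 h, A_1 stood at 193 CPM and A_2 at 280 CPM, below B_2 at 1496 CPM. Another defining erythroid gene, Epb42, was at 0 in 18 of 24 libraries and reached at most 0.108 CPM. No erythroid marker passed the test for hCG or for siNTS at either time by edgeR, DESeq2 or limma-voom, among the 7 with enough counts, and 0 of them had an unadjusted p under 0.05. In bulk libraries such as these, fewer cells of a type and less RNA per cell cannot be told apart.

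**Figure D1:**
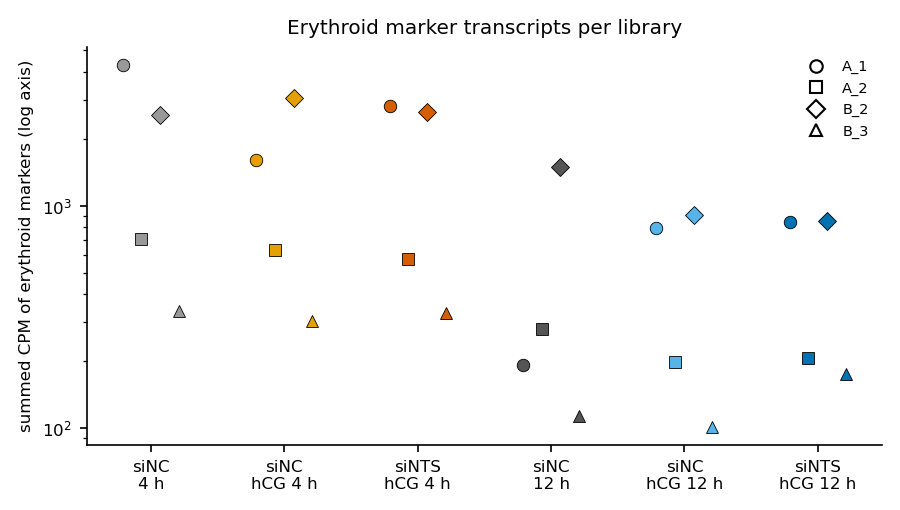
Summed CPM of 10 erythroid marker genes on a log axis, for each of the 24 libraries by group. Symbols give the replicate label, and each group's triangle (B_3) lies lowest, down to 101 CPM, while siNC A_1 without hCG at 4 h lies highest at 4284 CPM.

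The promoters of 4 genes whose transcripts moved in different ways are shown here for their sequence, before the levels. Each is a window of 300 bases from RefSeq, on mouse build GRCm38.p6, that starts 250 bases before a transcript start listed for the gene and ends 50 bases after it, read 5′ to 3′ on the gene's strand. For Urod and Ppox that start is the outermost one in the GENCODE annotation, and for Cpox it lies 84 bases upstream of it. For Alas1, which has 2 windows, it is an internal start, 700 bases inside the gene as GENCODE draws it. Alas1 is shown as the gene raised by hCG (chr9:106247905-106248204, minus strand), and Cpox as the gene raised by the Nts siRNA (chr16:58669958-58670257, plus strand). Capitals in both mark matches to CGCANGCG, the motif of nuclear respiratory factor 1 (NRF1), found on either strand.
Alas1: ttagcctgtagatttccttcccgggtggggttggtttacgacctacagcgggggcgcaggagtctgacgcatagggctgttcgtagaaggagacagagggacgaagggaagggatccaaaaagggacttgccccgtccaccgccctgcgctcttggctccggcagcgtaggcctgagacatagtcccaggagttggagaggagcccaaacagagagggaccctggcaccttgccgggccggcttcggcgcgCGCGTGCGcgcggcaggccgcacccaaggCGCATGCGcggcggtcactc
Cpox: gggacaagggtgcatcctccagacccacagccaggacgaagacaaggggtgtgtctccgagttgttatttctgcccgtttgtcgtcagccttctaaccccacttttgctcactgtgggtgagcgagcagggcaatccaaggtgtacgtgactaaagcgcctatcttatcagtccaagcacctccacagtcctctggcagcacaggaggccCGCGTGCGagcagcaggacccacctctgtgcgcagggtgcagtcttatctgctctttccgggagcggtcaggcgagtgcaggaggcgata
The Alas1 window holds the motif at 2 places, beginning at bases 2 and 31 after the start, and the Cpox window holds it at 1 place, 40 bases before the start.

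Urod and Ppox are shown as genes that rose with culture time under hCG (chr4:116994364-116994663 and chr1:171281137-171281436, both on the minus strand). Capitals mark the E-box CACGTG in Urod and the CCAAT box on either strand in Ppox.
Urod: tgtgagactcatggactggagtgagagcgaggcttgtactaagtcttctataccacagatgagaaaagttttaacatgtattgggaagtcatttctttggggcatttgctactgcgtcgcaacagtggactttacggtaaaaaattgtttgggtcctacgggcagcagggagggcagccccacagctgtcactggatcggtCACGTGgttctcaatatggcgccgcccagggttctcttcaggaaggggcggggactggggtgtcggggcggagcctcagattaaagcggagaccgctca
Ppox: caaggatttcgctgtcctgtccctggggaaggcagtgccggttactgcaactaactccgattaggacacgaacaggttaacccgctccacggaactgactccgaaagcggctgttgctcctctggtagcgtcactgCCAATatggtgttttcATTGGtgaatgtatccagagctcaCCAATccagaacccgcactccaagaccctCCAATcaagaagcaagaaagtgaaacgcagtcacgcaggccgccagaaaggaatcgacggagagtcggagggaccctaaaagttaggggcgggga
The E-box of Urod begins 49 bases before the start. Ppox holds 4 CCAAT boxes, beginning 114, 98, 74 and 45 bases before the start, of which the one at 98 lies on the opposite strand.

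The table held 12 windows for 7 of the 9 genes; Hmox1 had no entry, and Fech, on chromosome 18, was not used. Of the 12 windows, 4 from 3 genes (Alas1, Cpox and Uros) held the NRF1 motif, against 8.21% of all 32851 mouse windows of the same length. The E-box was in 4 windows of 3 genes (7.15% of all windows), the GC box GGGCGG in 8 windows of 6 genes (35.7%) and the CCAAT box in 4 windows of 3 genes (37.4%). TGANNNNGC, a loose pattern for the antioxidant response element, was in 3 windows of 2 genes, against 41.3% of all windows. A match to so common a pattern does not mark such an element. The cyclic AMP response element TGACGTCA, the NR5A site CAAGGTCA, the AP-1 site TGANTCA and the TATA box TATAAA were in 0 of the 12 windows, against 1.79%, 1.56%, 7.81% and 13.6% of all windows. Windows of 1 gene can overlap, so their matches are not independent, and matches to different motifs can overlap.

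The 9 genes differed widely in level. Per kilobase of the annotated transcript, which makes levels comparable between genes, Hmox1 stood highest with a mean of 373 CPM per kilobase over the 24 libraries. Urod (33.1), Alad (32.7), Cpox (31.4), Hmox2 (26.5) and Alas1 (25.4 CPM per kilobase) formed a middle group, and the order within it changed between groups of samples. Fech (10.1), Ppox (6.57) and Uros (5.76 CPM per kilobase) were lowest. Alas1 thus did not lead the pathway by transcript level, at 17.0 CPM per kilobase in siNC cells without hCG at 4 h against 37.1 for Alad and 35.1 for Cpox. After 12 h of hCG it reached 32.3 CPM per kilobase, above Cpox at 23.6 and below Urod at 48.4. Transcript lengths came from the GENCODE M21 annotation of build GRCm38, in which Alas1 spans 106233455 to 106248654 on chromosome 9 with 11 exons. Cpox spans 58670292 to 58717636 on chromosome 16 with 7 exons, and Hmox1 spans 75093621 to 75100589 on chromosome 8 with 5 exons. The order depends on the transcript chosen. That of Fech was the longest, at 6571 bases, and without the division Fech averaged 66.5 CPM against 49.3 CPM for Urod.

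**Figure D2:**
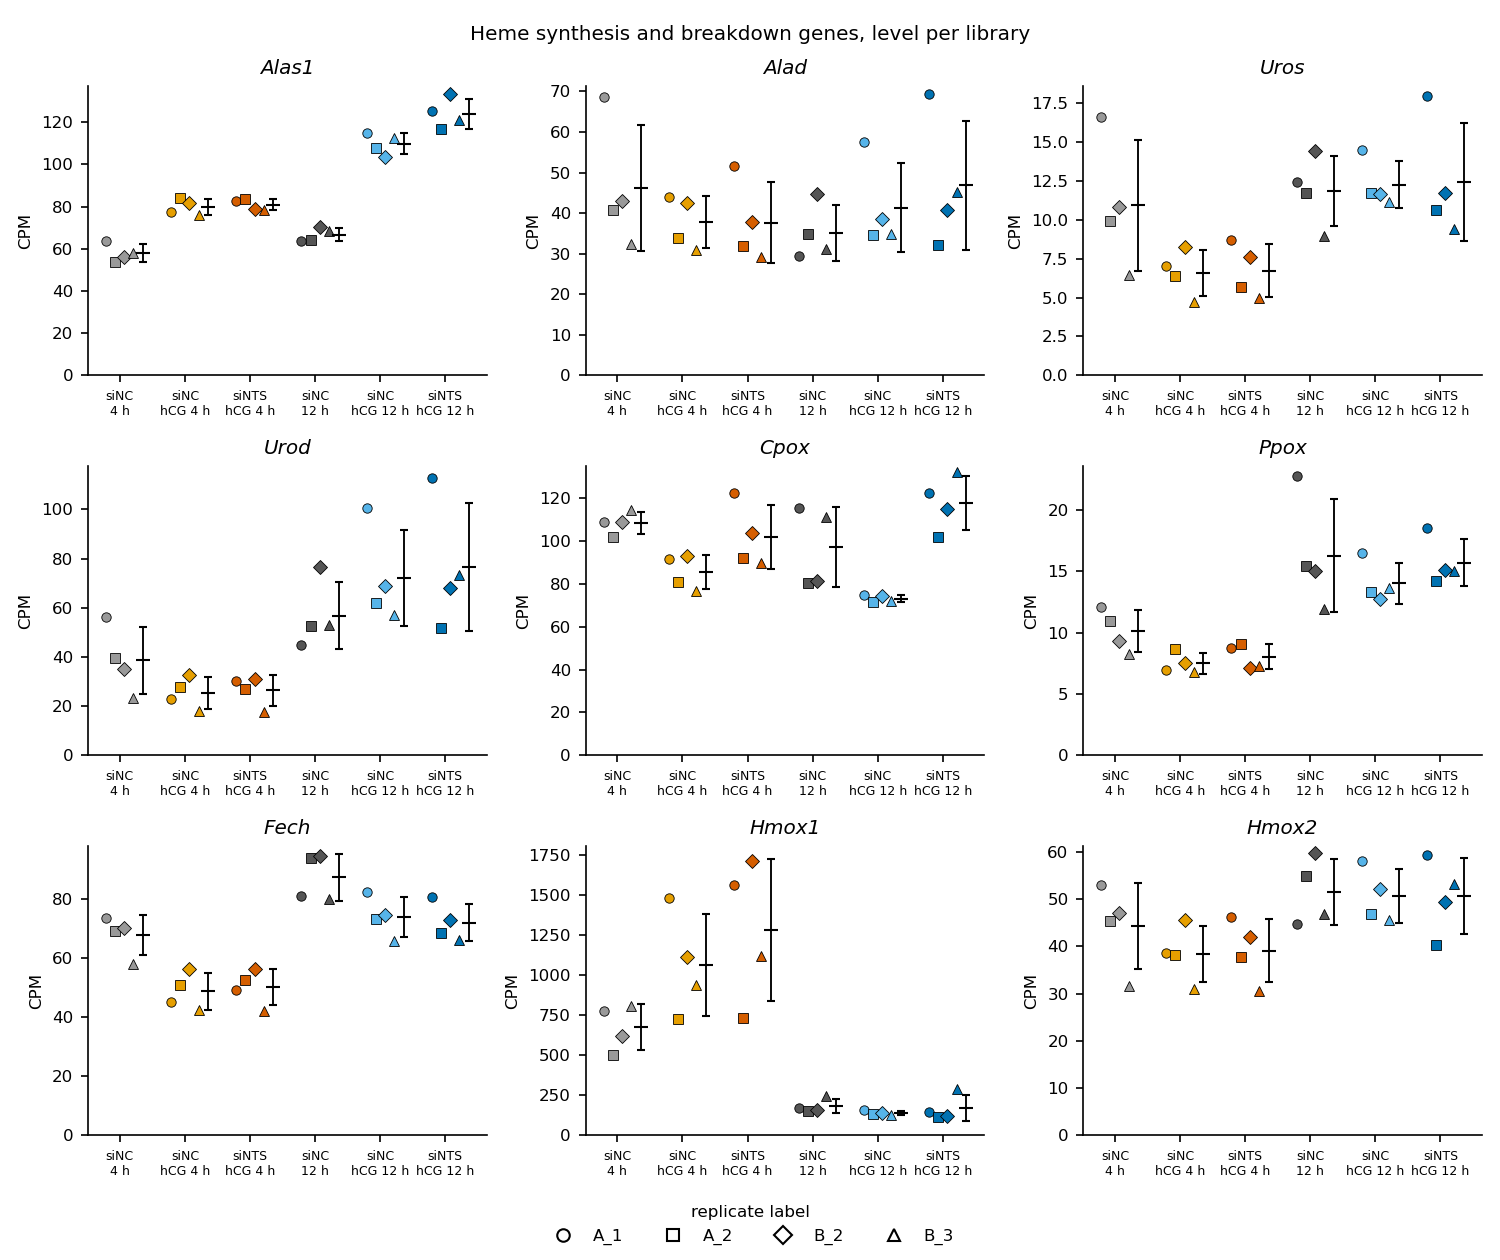
CPM of the 9 genes in each of the 24 libraries, by group, with linear axes that start at 0. Symbols give the replicate label, and the bar beside each group is the mean ± SD (n = 4). Alas1 steps up with hCG at both times, Cpox is lowest in siNC cells with hCG for 12 h, and Hmox1 is high at 4 h and low at 12 h.

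Setting siNC cells with hCG for 4 h against those in plain medium addressed what the ovulatory signal changes early. Alas1, the gene for the first enzyme, rose, while Uros and Fech fell. Of the 9 genes, 1 rose and 2 fell, where 19.1% of all genes tested passed in either direction (7.95% higher and 11.1% lower). The median log2 fold change was −0.35 over the 9 genes and −0.07 over all genes, with 7 of the 9 below 0. With the replicate label as a block, 2 of the 9 rose and 4 fell, where 30.1% of all genes passed (12.8% higher and 17.3% lower). Without A_2 only Alas1 passed, and without A_1 or B_2 2 of the 9 did. Over all genes, 1283 passed without A_2, 2478 without A_1 and 1693 without B_2, against 2936 with all labels.

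Alas1 measured 63.6, 53.6, 55.9 and 58.1 CPM without hCG and 77.3, 84.1, 81.9 and 76.1 CPM with hCG for 4 h. The groups did not overlap, and the library with hCG was the higher under all 4 labels. The log2 fold change was 0.47 ± 0.08 (adjusted p = 0.00014), and it passed with any 1 of the 4 labels left out. Alad, whose enzyme condenses the product of ALAS1 into porphobilinogen, averaged 46.2 ± 15.6 CPM without hCG and 37.8 ± 6.40 CPM with it. Its change of −0.29 ± 0.25 did not pass (adjusted p = 0.47), and its highest value without hCG, 68.6 CPM, came from label A_1.

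Uros encodes the enzyme that closes the ring. It stood at 16.6, 9.91, 10.8 and 6.45 CPM without hCG and at 7.04, 6.37, 8.27 and 4.74 CPM with hCG. Each label was lower with hCG although the groups overlapped. The log2 fold change was −0.73 ± 0.25 (adjusted p = 0.048), close to the threshold. Blocking on the label gave −0.69 (adjusted p = 0.0015). Without a block it did not pass without A_1 (−0.47, adjusted p = 0.20), without A_2 (−0.73, 0.22) or without B_2 (−0.84, 0.12). With all labels, the call was lost with size factors by the RLE method (adjusted p = 0.058) and by limma-voom (0.075). It was lost too with no filter on low counts (0.075) and with only the libraries of the comparison (0.13). It held with a culture date block (0.0030), by DESeq2 (0.035) and with a mean of at least 1 CPM required (0.040). Label A_1, the highest in Uros without hCG, also had the highest erythroid marker sum there; the part of that sum in the result was not tested. Urod, whose enzyme trims the ring's side chains, was lower with hCG under 4 of 4 labels. It averaged 38.7 ± 13.7 CPM without hCG and 25.4 ± 6.43 CPM with it (−0.61 ± 0.27, adjusted p = 0.13; 0.057 with the block), which did not pass.

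The last 3 enzymes of the pathway act in mitochondria, and each was lower with hCG for 4 h under all 4 labels. So were Alad, Uros, Urod and Hmox2, so this was not particular to the last steps. The share of all genes lower under all 4 labels was not computed. Fech, the gene for the iron-inserting enzyme, measured 73.5, 69.1, 70.1 and 57.8 CPM without hCG. With hCG it measured 45.2, 50.8, 56.2 and 42.4 CPM, and the groups did not overlap. It fell by 0.47 ± 0.11 on the log2 scale (adjusted p = 0.0051), a call that was lost without A_2 (adjusted p = 0.086). Cpox went from 109 ± 5.15 to 85.5 ± 8.01 CPM with groups that did not overlap, a change of −0.35 ± 0.12 that narrowly missed the threshold (adjusted p = 0.053). It passed with the label as a block (adjusted p = 0.016) and with DESeq2 (adjusted p = 0.046). Ppox, at 10.2 ± 1.70 and 7.50 ± 0.854 CPM, changed by −0.44 ± 0.17 (adjusted p = 0.074), and passed with the block (adjusted p = 0.016).

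The heme oxygenase genes did not pass at 4 h. Hmox1 measured 775, 501, 620 and 808 CPM without hCG and 1479, 724, 1115 and 935 CPM with hCG. It was higher with hCG under each label, but the spread was wide and the groups overlapped. The change was 0.65 ± 0.29 (adjusted p = 0.12), and it passed when blocked by label, at 0.65 (adjusted p = 0.037). Blocked by culture date it was 0.66 and did not pass (adjusted p = 0.054). Hmox2 averaged 44.3 ± 9.09 CPM without hCG and 38.4 ± 5.91 CPM with it (−0.21 ± 0.16, adjusted p = 0.43), and the 95% interval of its change ran from −0.55 to 0.13. In the authors' deposited table of the 4 h comparison, Alas1 was higher (0.46, adjusted p = 3.6e-05), and Uros, Fech, Ppox and Cpox were lower, where 27.6% of its genes passed.

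**Figure D3:**
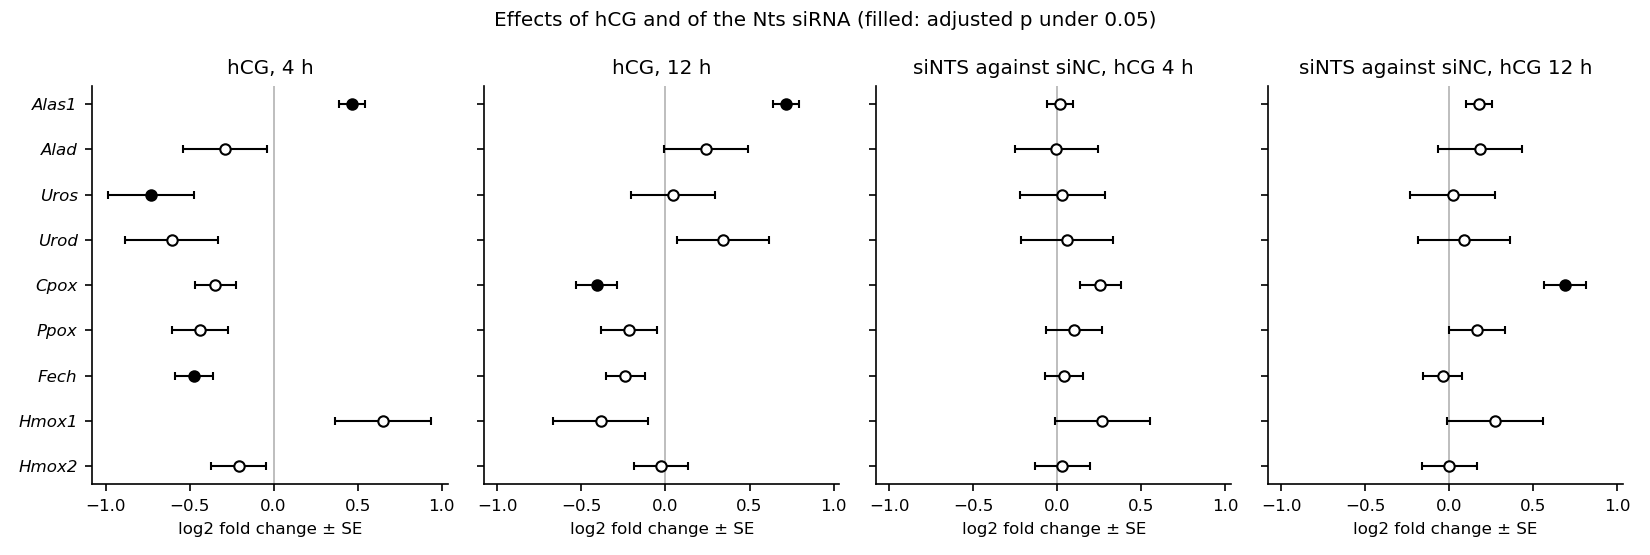
log2 fold change ± standard error of the 9 genes for hCG against no hCG at 4 h and 12 h in siNC cells, and for siNTS against siNC under hCG at 4 h and 12 h. Filled points have an adjusted p under 0.05: Alas1, Uros and Fech for hCG at 4 h, Alas1 and Cpox for hCG at 12 h, and Cpox for siNTS at 12 h.

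After 12 h of hCG, Alas1 was again higher and Cpox was lower. Of the 9 genes, 1 rose and 1 fell, where 16.5% of all genes tested passed (8.18% higher and 8.36% lower). The median over the 9 genes was −0.03 and over all genes −0.01. With any 1 of the labels left out, 1 of the 9 passed, which was Alas1. Over all genes, 2299 passed without A_1, 1268 without A_2, 1583 without B_2 and 2020 without B_3, against 2548 with all labels. Alas1 measured 63.8, 64.3, 70.3 and 68.3 CPM without hCG and 115, 108, 104 and 113 CPM with it, and every library with hCG lay above every library without. Its log2 fold change was 0.72 ± 0.08 (adjusted p = 6.1e-07), and it passed with any 1 of the 4 labels left out. The Alas1 effect was 0.25 ± 0.11 larger at 12 h than at 4 h, a difference that did not pass (adjusted p = 0.20).

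Cpox, for the enzyme that makes protoporphyrinogen from coproporphyrinogen, measured 115, 80.6, 81.4 and 111 CPM without hCG at 12 h. With hCG it lay between 71.4 and 75.0 CPM in all 4 libraries, below every library without hCG. It fell by 0.41 ± 0.12 on the log2 scale (adjusted p = 0.025; 0.0071 when blocked by label). Without A_1, A_2, B_2 or B_3 the adjusted p was 0.098, 0.052, 0.061 and 0.16, so the call held under none of these exclusions. Fech, at 87.2 ± 7.94 CPM without hCG and 73.9 ± 6.74 CPM with it, changed by −0.24 ± 0.11 (adjusted p = 0.17), and with the block it was the third of the 9 genes to pass (adjusted p = 0.035), where 27.0% of all genes passed. The authors' deposited table of the 12 h comparison has Alas1 higher and Fech and Cpox lower, where 24.5% of its genes passed.

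The remaining genes did not pass for hCG at 12 h. Uros changed by 0.04 ± 0.25 (95% interval −0.48 to 0.57) and Urod by 0.34 ± 0.27 (−0.22 to 0.91), and neither passed. For Alad, Ppox and Hmox2 the changes were 0.24, −0.21 and −0.03, with adjusted p-values of 0.56, 0.43 and 0.94. Hmox1 stood at 169, 154, 161 and 247 CPM without hCG and at 157, 132, 141 and 129 CPM with it. It was thus lower with hCG under all 4 labels at 12 h and higher under all 4 at 4 h. Its change at 12 h, −0.39 ± 0.29, did not pass (adjusted p = 0.40).

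Whether the hCG effect differed between 4 h and 12 h was tested directly as a difference of the 2 effects. None of the 9 genes passed by edgeR, DESeq2 or limma-voom, where 3.8% of all genes passed by edgeR, and 4 of the 9 had an unadjusted p under 0.05, as did 19.5% of all genes. With the label as a block, 2 of the 9 passed, where 14.1% of all genes did. Uros had an effect 0.75 higher at 12 h (adjusted p = 0.023; 0.77 ± 0.36, adjusted p = 0.24 without the block). Hmox1 had an effect 1.01 lower at 12 h (adjusted p = 0.043). Without the block its difference was −1.04 ± 0.40 (adjusted p = 0.15). With the culture date as the block, Uros passed (0.73, adjusted p = 0.039) and Hmox1 did not (−1.02, adjusted p = 0.066), where 1748 of all genes passed.

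The Nts siRNA was compared with the control siRNA in cells that all received hCG. Whether a change came from lower Nts or from another effect of the siRNA was not tested. At 12 h Cpox rose and the other 8 genes did not pass, where 0.162% of all genes passed in either direction and 0.0454% were higher. In cells with siNC, Cpox measured 75.0, 71.4, 74.3 and 71.9 CPM, and in cells with siNTS 122, 102, 115 and 132 CPM, so that the groups did not overlap. The log2 fold change was 0.69 ± 0.12 (95% interval 0.43 to 0.95, adjusted p = 0.023). Blocking by label gave 0.68 (adjusted p = 0.0019), where 0.591% of all genes passed. In the authors' deposited table it was 0.68 (adjusted p = 5.3e-05), where 2.3% of the genes passed. The size held without each label, between 0.62 and 0.74. The adjusted p without A_1 stayed under the threshold, but it was 0.17 without A_2, 0.76 without B_2 and 0.43 without B_3, exclusions under which 0 of all genes passed by edgeR, 25 having passed with all labels.

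The fall of Cpox with hCG at 12 h and its rise with siNTS share the same 4 siNC libraries with hCG, so the 2 effects are not independent of each other. With siNTS and hCG, Cpox at 102 to 132 CPM overlapped its range without hCG, 80.6 to 115 CPM. At 4 h Cpox was higher with siNTS under 4 of 4 labels, at 122, 91.9, 104 and 89.9 CPM against 91.5, 80.7, 93.0 and 76.7 CPM. That change, 0.26 ± 0.12, did not pass (adjusted p = 1), and the groups overlapped. The siNTS effect on Cpox was 0.43 ± 0.17 larger at 12 h than at 4 h, which did not pass either (adjusted p = 1). For that difference 0 of all genes passed by edgeR and 1 by DESeq2, with an unadjusted p under 0.05 by edgeR in 116 genes, Cpox among them.

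Alas1 was the other gene whose siNC and siNTS libraries did not overlap at 12 h, where 2.46% of all genes had groups that did not overlap. In cells with siNC it measured 115, 108, 104 and 113 CPM, and in cells with siNTS 125, 117, 133 and 121 CPM, a change of 0.18 ± 0.08 that did not pass (adjusted p = 1; 0.61 with the block; 0.096 in the authors' deposited table). The other 7 genes changed by −0.04 to 0.27 at 12 h with overlapping groups. The upper end of that range was Hmox1, where 1 library decided the mean: with siNTS it stood at 148, 117, 122 and 288 CPM, and the libraries A_1, A_2 and B_2 were each lower than their siNC counterparts. At 4 h the 9 genes changed by −0.01 to 0.27 and 0 of 9 passed by edgeR, DESeq2 or limma-voom, where 0.00649% of all genes did by edgeR and 0.418% in the authors' deposited table. At that time 0 of the 9 had an unadjusted p under 0.05 by edgeR and 1 by DESeq2.

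Between 4 h and 12 h of culture Hmox1 fell, and several genes of synthesis rose. The comparison of 12 h with 4 h in siNC cells without hCG was set up with the hCG and siRNA comparisons; those of 12 h with 4 h under hCG and under hCG with siNTS were added after the data had been seen. Without hCG, Alas1, Ppox and Fech rose and Hmox1 fell, so that 4 of 9 passed, where 30.8% of all genes did. When A_2 or B_2 was left out, 2 of the 9 passed. Over all genes, 3137 passed without A_2 and 3254 without B_2, against 4750 with all labels. Under hCG, Alas1, Uros, Urod, Ppox and Fech rose and Hmox1 fell, so that 6 of 9 passed, where 43.2% of all genes did. Under hCG with siNTS these 6 genes passed in the same directions, where 42.5% of all genes did. The 3 comparisons share no libraries with each other, but they share the replicate labels and culture dates, so they are not separate repeats. Each also shares its libraries with the hCG or siRNA comparisons above.

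Hmox1 had the largest change. It measured 501 to 808 CPM at 4 h and 154 to 247 CPM at 12 h without hCG, a log2 fold change of −1.89 ± 0.29 (adjusted p = 5.3e-05). Under hCG it went from 724 to 1479 CPM at 4 h to 129 to 157 CPM at 12 h, a change of −2.93 ± 0.31 (adjusted p = 1.5e-07). Under hCG with siNTS the change was −2.92 ± 0.31 (adjusted p = 1.6e-07), from 733 to 1708 CPM down to 117 to 288 CPM. In each of these 3 settings every 12 h library lay below every 4 h library, and the change passed with any 1 of the labels left out. The summed level of macrophage markers was lower at 12 h too. Without hCG the sum of 15 such genes was 16.5 to 38.5 CPM at 4 h and 6.73 to 12.0 CPM at 12 h. Of the 12 tested, 8 fell, where 30.8% of all genes passed in either direction. Under hCG the sum went from 23.6 to 30.8 CPM down to 13.6 to 19.2 CPM. There 4 of the 12 fell, where 43.2% of all genes passed in either direction. With siNTS as well the sum went from 21.3 to 30.6 CPM down to 12.1 to 16.5 CPM. There 5 of the 12 fell, where 42.5% of all genes passed in either direction. The highest single markers were Csf1r at 1.17 to 13.8 CPM, Lyz2 at 1.42 to 10.7 CPM and Cd68 at 1.95 to 4.54 CPM, while Ptprc reached 0.395 CPM, Adgre1 reached 1.20 CPM and Cd163 was at 0 in 22 of 24 libraries. With hCG, 1 of the 12 tested macrophage markers rose at 4 h and 1 at 12 h, and 0 fell. Of all genes, 19.1% and 16.5% passed in either direction at these times. Csf1r in siNC cells stood at 2.95 to 6.47 CPM without hCG and 9.37 to 13.4 CPM with it at 4 h. At 12 h it stood at 1.17 to 1.61 CPM and 4.70 to 7.82 CPM. The part of the macrophage markers in the Hmox1 result was not tested.

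Without hCG, Urod measured 56.4, 39.7, 35.1 and 23.4 CPM at 4 h, and by 12 h it stood at 44.9, 52.5, 76.8 and 53.1 CPM, with A_1 moving down and the other 3 labels up. That change, 0.56 ± 0.27, did not pass (adjusted p = 0.13), and it passed with the block (0.61, adjusted p = 0.032) and without A_1 (0.91, adjusted p = 0.013). Under hCG it went from 22.8, 28.0, 32.8 and 17.9 CPM to 101, 62.0, 68.7 and 57.1 CPM, with no overlap. That rise was 1.51 ± 0.28 (adjusted p = 0.00015), and with siNTS it was 1.53 ± 0.28 (adjusted p = 0.00013). The erythroid marker sum went down from 4 h to 12 h in each label, both without hCG and under hCG. Without hCG, A_1 went from 4284 to 193 CPM, A_2 from 712 to 280, B_2 from 2558 to 1496 and B_3 from 336 to 113. Under hCG the sum went from 303 to 3051 CPM at 4 h to 101 to 907 CPM at 12 h, as Urod went up. The part of that sum in the Urod values was not tested.

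Ppox, for the enzyme that makes protoporphyrin, rose in all 3 settings, from 10.2 ± 1.70 to 16.3 ± 4.61 CPM without hCG (0.68 ± 0.17, adjusted p = 0.0038) and by 0.90 ± 0.17 under hCG and 0.97 ± 0.17 under hCG with siNTS. Fech rose from 67.6 ± 6.81 to 87.2 ± 7.94 CPM without hCG (0.37 ± 0.11, adjusted p = 0.018), by 0.60 ± 0.11 under hCG and by 0.52 ± 0.11 with siNTS as well. The rise of Fech without hCG was lost without A_2 (adjusted p = 0.13) and without B_2 (adjusted p = 0.10). Uros did not pass without hCG (0.12 ± 0.25, adjusted p = 0.75) and rose under hCG (0.89 ± 0.25, adjusted p = 0.0069), which did not pass when A_2 was left out (adjusted p = 0.056). Alas1 rose by 0.21 ± 0.08 without hCG (adjusted p = 0.043), which was lost without A_2 (adjusted p = 0.19), without B_2 (0.29) or without B_3 (0.17). Under hCG it rose by 0.46 ± 0.08 (adjusted p = 4.6e-05) and with siNTS by 0.62 ± 0.08 (adjusted p = 1.3e-06). Alad and Cpox did not pass in any of the 3 settings. Hmox2 did not pass either, and with the block it passed at 0.40 under hCG (adjusted p = 0.012; 0.053 without the block) and at 0.39 with siNTS (adjusted p = 0.016; 0.073 without the block). Under hCG it also passed with a mean of at least 1 CPM required (adjusted p = 0.049) and with only the libraries of that comparison (adjusted p = 0.035).

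**Figure D4:**
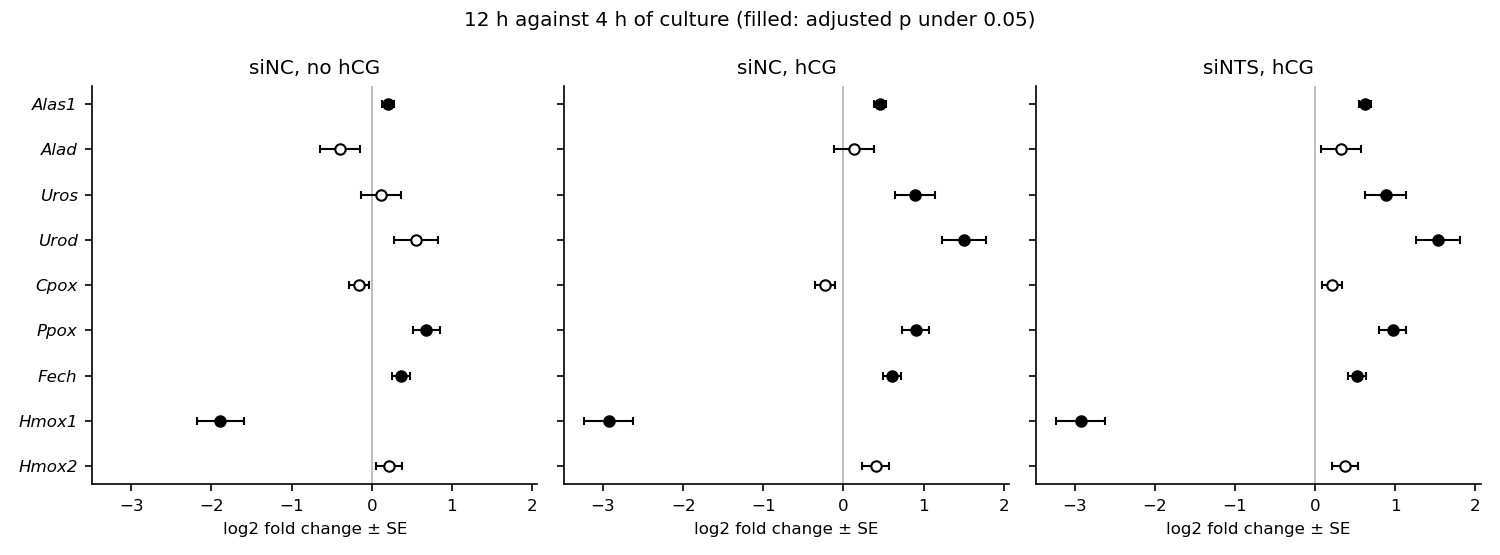
log2 fold change ± standard error of the 9 genes at 12 h against 4 h, in siNC cells without hCG, siNC cells with hCG and siNTS cells with hCG. Filled points have an adjusted p under 0.05. Hmox1 lies between −1.89 and −2.93, and Urod is the highest point under hCG at 1.51 and 1.53.

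Other genes of the pathway came from 5 lists of enzymes, transporters, regulators, iron genes and heme-containing enzymes. Beside their counts stand 19.1% of all genes passing for hCG at 4 h and 16.5% at 12 h, with medians over all genes of −0.07 and −0.01. Alas2, the erythroid form of the first enzyme, stood at 0.673 to 23.7 CPM over the 24 libraries, highest in libraries with much globin. Its hCG effect was −0.28 ± 0.92 at 4 h and 0.11 ± 0.95 at 12 h, and neither passed (adjusted p = 0.87 and 0.95). Blvra and Blvrb encode the biliverdin reductases, which turn the biliverdin made by the heme oxygenases into bilirubin. Blvra averaged 16.7 ± 6.81 CPM without hCG and 10.5 ± 2.09 CPM with it at 4 h, a change of −0.66 ± 0.29 that did not pass (adjusted p = 0.11) and passed with the block (adjusted p = 0.018). At 12 h its change was 0.18 ± 0.28 (adjusted p = 0.71). Blvrb changed by −0.01 ± 0.27 at 4 h (adjusted p = 0.98) and by 0.44 ± 0.27 at 12 h (adjusted p = 0.29).

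Of 15 genes of heme and porphyrin transport, 14 were tested, and 1 rose with hCG at 4 h. This was Flvcr1, described as a heme exporter and a choline transporter, at 47.5 ± 14.3 and 69.7 ± 14.1 CPM (0.55 ± 0.19, adjusted p = 0.041), a call kept under 1 of the 4 label exclusions. At 12 h 1 gene fell, Flvcr2, from 9.69 ± 1.58 to 6.72 ± 0.523 CPM (−0.53 ± 0.16, adjusted p = 0.025), also kept under 1 exclusion. Abcb10, a mitochondrial transporter needed for heme synthesis in red cell precursors, was higher at 12 h by 0.52 ± 0.19 (adjusted p = 0.061; 0.0035 with the block). Pgrmc1, a heme-binding protein of the endoplasmic reticulum, had 0.27 ± 0.14 at 4 h (adjusted p = 0.19). The medians of the 14 were −0.16 at 4 h and 0.16 at 12 h.

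Among 16 regulators of heme synthesis and breakdown, 3 rose and 0 fell with hCG at 4 h, with a median of 0.20. Bach1, the repressor of Hmox1 that heme itself removes from DNA, rose from 72.8 ± 14.2 to 119 ± 16.0 CPM (0.71 ± 0.14, adjusted p = 0.00070). Eif2ak1, the kinase that slows protein synthesis when heme is short, rose from 59.6 ± 3.60 to 80.9 ± 5.08 CPM (0.44 ± 0.09, adjusted p = 0.0011). Mafg, a partner of BACH1 and NRF2 on DNA, was the third (0.37 ± 0.12, adjusted p = 0.035), named after its value was seen, and its call was lost under each label exclusion. At 12 h 1 regulator rose and 3 fell, with a median of −0.01. The clock repressors Nr1d1 and Nr1d2, which are nuclear receptors that bind heme, fell by 0.83 ± 0.20 (adjusted p = 0.0052) and 0.89 ± 0.12 (adjusted p = 7.8e-06). The others, named after their values were seen, were Ppargc1a (−1.27 ± 0.36, adjusted p = 0.018, at 0.822 ± 0.237 CPM with hCG) and the mitochondrial protease gene Lonp1 (0.47 ± 0.13, adjusted p = 0.013). Of the 4 label exclusions, Nr1d1 and Lonp1 passed under 2 each and Ppargc1a under 1.

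Of 16 genes of iron uptake, storage and export, after 4 h of hCG 2 rose and 3 fell, and 3 rose and 1 fell at 12 h, with medians of 0.16 and 0.12. Slc40a1, the gene for ferroportin, which exports iron from cells, fell from 612 ± 119 to 283 ± 72.5 CPM at 4 h (−1.11 ± 0.23, adjusted p = 0.0012). At 12 h it fell from 644 ± 146 to 175 ± 50.1 CPM (−1.88 ± 0.23, adjusted p = 3.9e-06). Among genes of iron uptake, Tfrc and Slc39a14 rose at both times. Tfrc, the transferrin receptor, rose by 0.64 ± 0.16 at 4 h and from 211 ± 27.6 to 399.8 ± 36.3 CPM at 12 h (0.92 ± 0.16, adjusted p = 0.00033). Slc39a14, a carrier for iron not bound to transferrin, rose by 0.76 ± 0.11 and 0.71 ± 0.11. Nfs1, the sulfur donor for iron-sulfur clusters, fell by 0.49 ± 0.13 at 4 h (adjusted p = 0.0090) and had 0.02 ± 0.13 at 12 h. Iscu (−0.46 at 4 h, adjusted p = 0.024) and Steap1 (1.17 at 12 h, adjusted p = 0.029) were the others to pass and were named after their values were seen, and both were lost under each label exclusion.

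Among heme-containing enzymes and their electron donors, 22 of 24 were tested, and 6 rose and 2 fell at 4 h, and 9 rose and 2 fell at 12 h, with medians of −0.02 and 0.50; Hmox2 is counted among the 22. Cyp11a1, the heme enzyme that cuts the cholesterol side chain to begin steroid synthesis, rose from 179.8 ± 38.4 to 498 ± 206 CPM at 4 h (1.47 ± 0.26, adjusted p = 0.00030). At 12 h it rose from 285 ± 39.5 to 2713 ± 482 CPM (3.25 ± 0.27, adjusted p = 3.4e-08). Fdx1, which hands electrons to CYP11A1, rose by 1.14 ± 0.26 and 2.45 ± 0.27, and Cyp51, a heme enzyme of cholesterol synthesis, by 0.74 ± 0.12 and 1.10 ± 0.12. Ptgs1, a heme-containing prostaglandin synthase, rose by 2.15 ± 0.38 and 4.00 ± 0.42. The genes that fell were Cyp1b1 and Nos3 at 4 h and Cyp1b1 and Cat at 12 h, named after their values were seen. For siNTS, 0 genes of these 5 lists passed by edgeR, DESeq2 or limma-voom at either time, with an unadjusted p under 0.05 in 0 of them at 4 h and in 1, a transport gene, at 12 h.

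**Figure D5:**
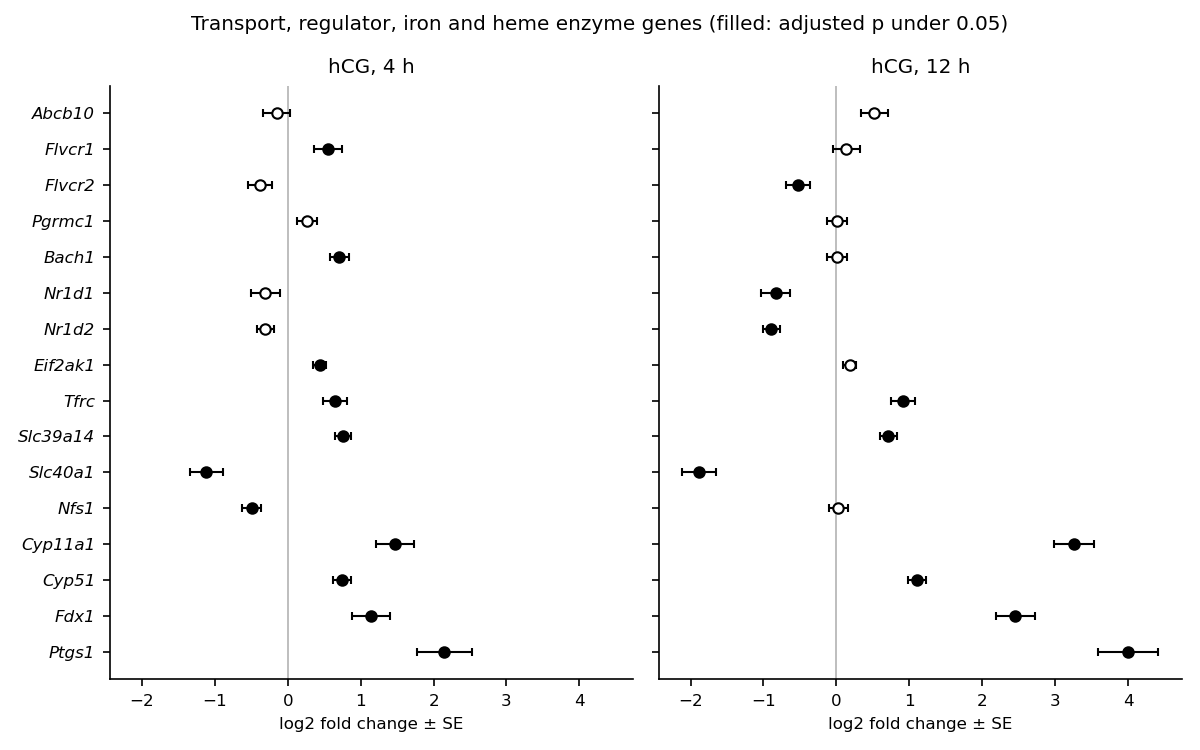
log2 fold change ± standard error for hCG against no hCG at 4 h and 12 h in siNC cells, for up to 4 genes of each of 4 lists with the smallest adjusted p. Filled points have an adjusted p under 0.05. The iron importer genes Tfrc and Slc39a14 lie above 0 and the exporter gene Slc40a1 below 0 at both times, and Cyp11a1, Fdx1 and Ptgs1 lie farther out at 12 h than at 4 h.

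The genes most like Alas1 and Hmox1 were found from Pearson's r of log2 CPM over the 24 libraries, among 10408 named genes with a mean of at least 5 CPM. The libraries fall into groups by time and hCG, so r mostly carries the differences between groups and is given as a description only. For Alas1 the 5 most alike were Cyp11a1 (0.954), Adipor2 (0.948), Sgk1 (0.946), Ccrl2 (0.943) and Efhd1 (0.943). For Hmox1 they were Gclm (0.980), the modifier subunit of the enzyme that begins glutathione synthesis, then Ier5 (0.973), Rab39b (0.969), Esm1 (0.969) and Kansl2 (0.968).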

How the data were processed

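Per the labels' protocols, libraries were stranded and made from mRNA, with 151 sequencing cycles at either end of each fragment. The authors deposited estimated counts per gene, not scaled to a common total; GRCm39, Salmon 1.4.0, limma, edgeR and R 4.1.0 appear in the submitters' processing notes, with no role given to any. Salmon divides reads shared by similar transcripts by estimate. The authors also deposited their own log2 fold changes with p-values; their model is not given in the sources used here, and 96 columns of values per library in those tables were not used.

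Estimated counts were rounded to whole numbers. Genes kept by edgeR's filterByExpr over the 6 groups, 15405 of 39253 holding 99.97% of counts, entered 1 quasi-likelihood fit (edgeR 4.0.16, R 4.3.3) of all 24 libraries with TMM scaling and no block. Standard errors are the log2 fold change over the root of the F statistic. The script was tested on simulated counts. The 9 genes, the lists and the tests were chosen with earlier results of these data known. From each wider list, up to 4 genes with the smallest adjusted p for hCG at either time were named, and others where a count was 5 or fewer.

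Titles tie each replicate label to a culture date, so labels pair the libraries. As a check, deviations from group means of same-label libraries correlated over 0.1 in 25 of 28 pairs, over 10798 genes. The lowest was −0.692, the median 0.542 and the highest 0.957. Every pair under 0.1 held an siNC library without hCG at 12 h. That of A_1 correlated at −0.692 with siNC and hCG at 12 h, and at −0.647 with siNC without hCG at 4 h. That of B_2 correlated at 0.00755 with siNC without hCG at 4 h. Alternatives were a replicate label block, a culture date block, size factors by the RLE method, testing with no low-count filter, a mean of at least 1 CPM, DESeq2 1.42.0, limma-voom (limma 3.58.1), only the libraries of a contrast, and leaving out each label. The 36 pairs of libraries within groups all differed beyond sampling noise, with chi-square over degrees of freedom from 24.1 to 469. Nothing says that A_2 and B_2 were separate pools of mice, so the spread that p-values measure between these libraries may be technical in part. Promoter windows came from RefSeq on GRCm38.p6 and gene models from GENCODE M21 on GRCm38. The build named in the submitters' notes is GRCm39, and no coordinates were converted. Some genes of the lists are not reported here by name, and they remain in the marker sums and in the counts over lists.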

Additional observations from a re-analysis of the deposited data

Results flagged for a closer look

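In 54 checks of a single library against the other 3 of its group, 2 libraries stood apart, where chance flags about 1 group in 20. Uros in siNC cells with hCG for 12 h stood at 14.5 CPM under label A_1 and at 11.2 to 11.7 CPM under the other labels. Hmox1 in siNC cells without hCG at 12 h stood at 247 CPM under B_3 and at 154 to 169 CPM under the others. The hCG effect differed between 12 h and 4 h for 2 of the 9 genes in the fit that blocks on the replicate label. The differences were 0.75 for Uros and −1.01 for Hmox1 on the log2 scale, and neither passed with no block (adjusted p = 0.24 and 0.15). With a culture date block that of Uros passed (adjusted p = 0.039) and that of Hmox1 did not (adjusted p = 0.066).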

How the results depend on the processing

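The 9 genes' effects in 9 comparisons were recomputed under 12 alternatives, and of 972 values 921 kept their direction and their side of the threshold or were not called in either fit. None of the 22 calls changed sign; 30 values lost a call and 21 gained one, and the cause was not tested. With the replicate block, the members passing went from 3 to 6 of 9 for hCG at 4 h and from 0 to 2 for the change of the hCG effect (5 and 1 with the culture date block). Over all genes, the replicate block gave 4642 against 2936 for hCG at 4 h, 4164 against 2548 at 12 h, 3 against 1 and 91 against 25 for siNTS at 4 h and 12 h, and 2174 against 586 for the change of the hCG effect. The block of culture date gave 4 and 75 for siNTS and 1748 for that change. DESeq2 gave 6 and 61 for siNTS, 1061 for that change and 1 against 0 for the change of the siNTS effect. Without a filter on low counts, 1 member passed for hCG at 12 h (2 with it), 14 genes for siNTS at 12 h and 385 for the change of the hCG effect, and a mean of at least 1 CPM gave 38 for siNTS at 12 h. With only the libraries of the contrast, 1770 genes passed for hCG at 4 h, 1 for siNTS at 12 h, and 1 member for hCG at 12 h, 0 for siNTS at 12 h and 1 for time without hCG.

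Leaving out 1 label at a time gave 1 to 3 members for hCG at 4 h, 1 to 1 for hCG at 12 h, 0 to 1 for siNTS at 12 h and 2 to 5 for time without hCG. Over all genes the ranges were 1283 to 2485 for hCG at 4 h, 1268 to 2299 at 12 h, 0 to 3 and 0 to 40 for siNTS at 4 h and 12 h, 69 to 432 for the change of the hCG effect and 3137 to 4475 for time without hCG. With 4 libraries a group, the 95% interval of the hCG effect ran from −0.81 to 0.23 for Alad at 4 h and from −0.22 to 0.91 for Urod at 12 h, so changes of either direction within those ranges are not set apart by the data for these 2 genes.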
